A study of Rattus norvegicus with 6 samples.

Results

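The enzymes of methionine, cysteine and glycine metabolism were examined in rat liver after a single feeding period on a low-protein diet. The members are 10 genes (Mat1a, Gnmt, Ahcy, Bhmt, Cbs, Cth, Cdo1, Csad, Gldc and Shmt1), and they were found through every probe set whose platform annotation gives exactly 1 gene symbol that is one of these names. This gave 12 probe sets out of 31042, of which 20826 carry 1 symbol and stand for 14217 genes. Gldc has 3 probe sets and each other member has 1. All 10 genes were found in the RefSeq table of assembly GRCr8 by gene ID.

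The low-protein group, 5P, holds 3 arrays of liver RNA from rats that ate an isoenergetic low-protein diet, and 15P holds 3 arrays from rats that stayed on the control diet. All were male Wistar rats, 6 weeks old, that weighed about 150 g when purchased, were single-housed, spent 4 days on commercial pellets and another 4 days learning to take the control diet in a daily feeding window. Each rat then had its own diet for 8 hours, and the liver was removed when a further 16 hours without food had passed, so both diets were compared in the fasted state. The labels do not state that each array is a different rat, and p-values therefore reflect array-to-array spread, which may be technical. Values below are log2 of the RMA intensity, a background-corrected and between-array normalized summary of the probes of a probe set, and a log2 fold change is 5P minus 15P. Levels are compared between diets within a probe set and not between probe sets. Control replicate 3 stood somewhat apart: the first principal component of all probe sets, with 36.9% of the variance, placed the 5P arrays at 17.34 to 22.59, 15P replicate 3 at -10.11 and the other control arrays at -26.91 and -22.45.

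The liver breaks down much dietary methionine. The enzyme encoded by Mat1a turns it into S-adenosylmethionine, the methyl donor of the cell, the transferase of Gnmt disposes of surplus methyl groups on glycine, and the hydrolase of Ahcy frees homocysteine, which is either remethylated with betaine by the enzyme of Bhmt or passed to cysteine through the enzymes of Cbs and Cth. Cysteine goes to glutathione or is oxidised by the dioxygenase of Cdo1, after which the decarboxylase of Csad leads to taurine. Glycine is cleaved in mitochondria by a complex whose decarboxylase is encoded by Gldc, and Shmt1 encodes the cytosolic enzyme that interconverts serine and glycine.

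Low-protein livers averaged lower for Cbs, Bhmt and 2 of the 3 Gldc probe sets and higher for Csad and the third Gldc probe set, while Mat1a, Ahcy, Gnmt and Shmt1 averaged within 0.06 log2 units of the control livers. None of the 12 probe sets passed the test over all probe sets (limma with Benjamini-Hochberg adjustment, adjusted p from 0.110 to 0.960), where 0.132% of all 31042 probe sets passed at an adjusted p under 0.05. An unadjusted p under 0.05 was reached by 3 of the 12, all 3 lower in 5P livers (Bhmt and 2 of the Gldc probe sets), which is 25% of them, against 15.4% of all probe sets in either direction and 7.58% in the lower direction. With 1 array left out this count ran from 3 to 5, and it was 5 without 15P replicate 3 and without 5P replicate 1. The share of all probe sets at this threshold was not computed in those refits. Probe sets passing after adjustment numbered 41 with all arrays, 109 without 15P replicate 3 and 22 without 5P replicate 1. Without 15P replicate 3 the log2 fold changes were -0.52 for Bhmt, -0.88 for Cbs, 0.39 for Csad and -0.75 and -0.74 for the 2 lower Gldc probe sets. The 2 diets did not overlap in 5 of the 12 probe sets, 4 of them lower in 5P livers (Bhmt, Cdo1 and 2 of Gldc) and 1 higher (Csad), against 21.6% of all probe sets in either direction, 9.12% lower and 12.5% higher. The median log2 fold change of the 12 was -0.10, and that of all probe sets was 0.03. Of the 12, 10 were among the 15521 probe sets at or above the median mean intensity, whose median log2 fold change was -0.0055.

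**Figure D1:**
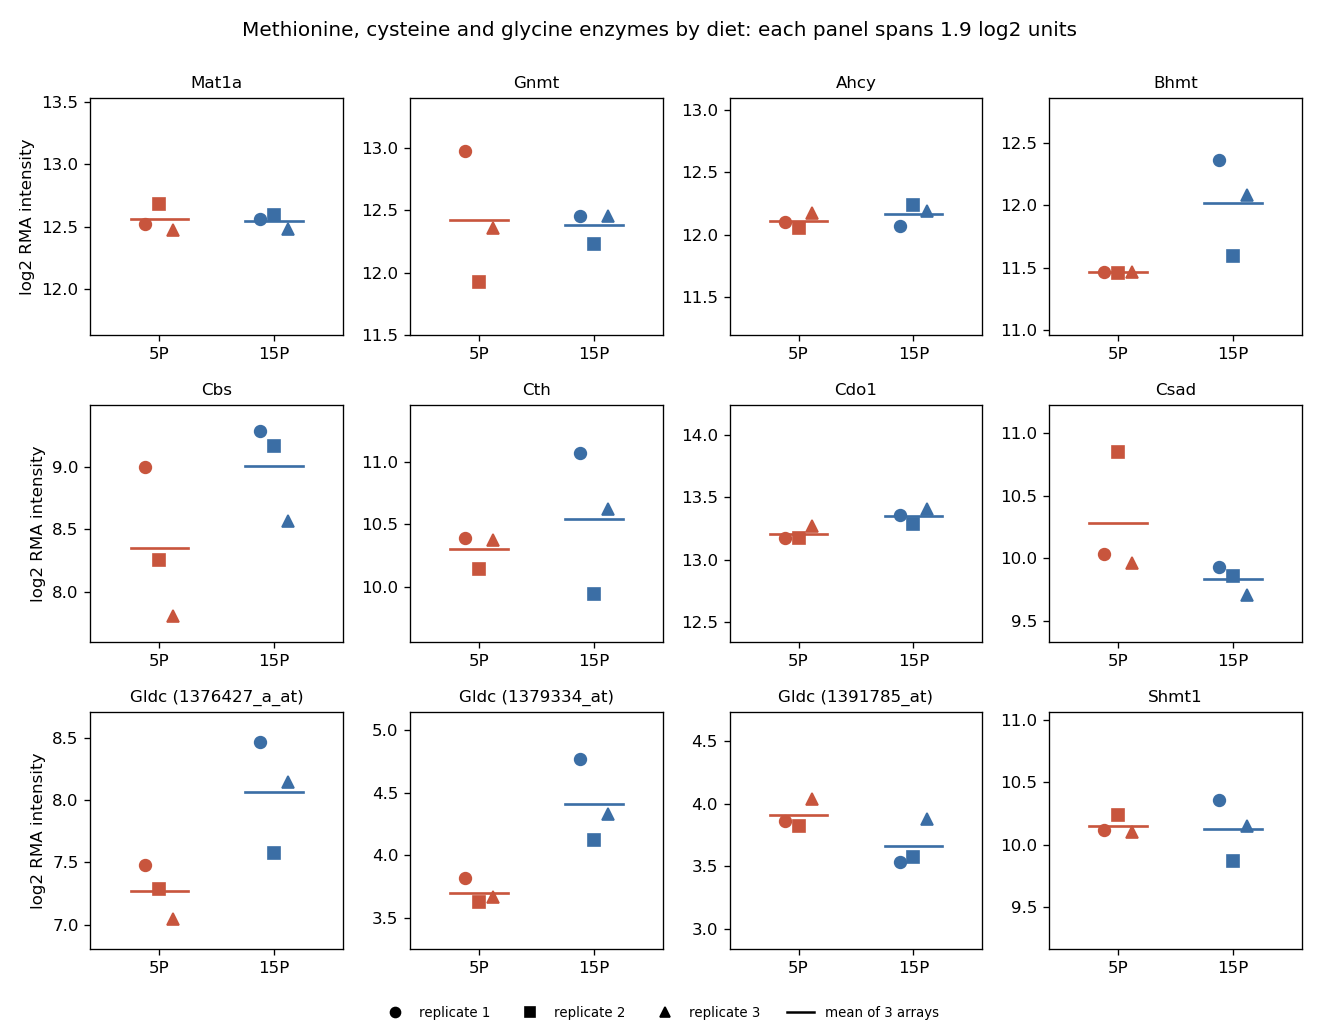
Log2 RMA intensity of the 12 probe sets on each array, with the 3 low-protein (5P) arrays left of the 3 control (15P) arrays in every panel, marker shapes for replicate numbers and a line at each mean. Every panel spans 1.9 log2 units, so that spreads can be compared: Bhmt lies between 11.46 and 11.47 on all 5P arrays and between 11.60 and 12.36 on the 15P arrays, and Gnmt spreads from 11.92 to 12.98 on the 5P arrays.

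Within the methionine cycle, Bhmt was the member that separated the diets. Its probe set read 11.47, 11.46 and 11.47 on 5P replicates 1, 2 and 3, against 12.36, 11.60 and 12.09 on 15P replicates 1, 2 and 3. The 5P arrays were all below the lowest control array and lay within 0.0096 log2 units of each other, whereas the control arrays ranged over 0.77. The log2 fold change was -0.55 (SE 0.173, 95% interval -0.95 to -0.16), so that 5P livers held 0.68 times the control level, and it did not pass (adjusted p = 0.198). It was -0.38 without 15P replicate 1 and -0.76 without 15P replicate 2.

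Mat1a, which makes S-adenosylmethionine, read 12.52, 12.68 and 12.48 in 5P livers, against 12.56, 12.59 and 12.48 in 15P livers. The diets overlapped, and the log2 fold change was 0.02 with a 95% interval from -0.20 to 0.23. Ahcy, which cleaves S-adenosylhomocysteine, read 12.10, 12.05 and 12.17 in 5P livers, against 12.07, 12.24 and 12.19 in 15P livers. Here too the diets overlapped, and the log2 fold change was -0.06 with an interval from -0.26 to 0.15. Both genes had an SE of 0.09, among the smallest of the members.

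Gnmt differed more among the low-protein arrays than between the diets. It read 12.98, 11.92 and 12.36 in 5P livers, against 12.45, 12.23 and 12.46 in 15P livers. The 5P arrays held both the highest and the lowest of the 6 values, with an SD of 0.53 in 5P and 0.13 in 15P (n = 3 each). Its log2 fold change of 0.04 (SE 0.231) was -0.24 without 5P replicate 1 and 0.29 without 5P replicate 2, so no direction can be given for it.

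Of the transsulfuration genes, Cbs averaged lower in 5P livers with overlapping diets, and Cth kept no steady direction. Cbs, the first enzyme of the route to cysteine, read 9.0, 8.26 and 7.80 in 5P livers, against 9.29, 9.17 and 8.57 in 15P livers. The 5P replicate 1 stood above 15P replicate 3, and the other low-protein arrays stood below every control array. The log2 fold change was -0.65 (SE 0.297, interval -1.33 to 0.02, adjusted p = 0.338), and it was -0.98 without 5P replicate 1 and -0.38 without 5P replicate 3. Cth, the enzyme that releases cysteine from cystathionine, read 10.39, 10.14 and 10.37 in 5P livers, against 11.07, 9.94 and 10.62 in 15P livers. The control arrays enclosed all 3 low-protein arrays. Its log2 fold change of -0.24 (SE 0.245, adjusted p = 0.678) was 0.018 without 15P replicate 1 and -0.54 without 15P replicate 2.

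Of the cysteine oxidation and taurine genes, Cdo1 was slightly lower and Csad higher in 5P livers. In rat liver the amount of the Cdo1 enzyme is known to follow cysteine supply chiefly through protein turnover, and Csad activity is known to be higher on diets poor in protein. Cdo1 read 13.17, 13.17 and 13.27 in 5P livers, against 13.36, 13.29 and 13.41 in 15P livers. The diets did not overlap, but the gap between the nearest arrays was small and the log2 fold change of -0.15 (SE 0.085, interval -0.34 to 0.05) did not pass (adjusted p = 0.447). Csad read 10.03, 10.85 and 9.96 in 5P livers, against 9.93, 9.85 and 9.71 in 15P livers. All 3 low-protein arrays were above all control arrays, but 5P replicate 2 stood far above the others. The log2 fold change of 0.45 (SE 0.216, interval -0.05 to 0.94, adjusted p = 0.363) was 0.17 without that array and 0.61 without 5P replicate 3.

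Glycine cleavage gave the members of smallest p, on 2 of the 3 Gldc probe sets. The probe set 1376427_a_at read 7.48, 7.28 and 7.05 in 5P livers, against 8.46, 7.58 and 8.14 in 15P livers. The diets did not overlap, and the log2 fold change was -0.79 (SE 0.213, interval -1.28 to -0.31, adjusted p = 0.155), or 0.58 times the control level. The probe set 1379334_at read 3.82, 3.62 and 3.67 in 5P livers, against 4.77, 4.12 and 4.33 in 15P livers, again without overlap. Its log2 fold change was -0.71 (SE 0.159, interval -1.07 to -0.34), it ranked 548th by p among the 31042 probe sets, and it did not pass (adjusted p = 0.110). Leaving out single arrays gave -1.03 to -0.59 for the first of these probe sets and -0.85 to -0.53 for the second.

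The third Gldc probe set, 1391785_at, pointed the other way. It read 3.86, 3.82 and 4.04 in 5P livers, against 3.53, 3.57 and 3.88 in 15P livers, with 15P replicate 3 above 2 of the 5P arrays. The difference came to 0.25 on the log2 scale (SE 0.118, interval -0.03 to 0.52, adjusted p = 0.363). The lower quartile of the arrays ran from 3.70 to 3.80, near the values of this probe set on all arrays and of 1379334_at on the 5P arrays, and 1376427_a_at lay above the array medians of 5.06 to 5.10. No detection calls were used here, and which part of the transcript each probe set reads was not analysed.

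Shmt1, which hands one-carbon units between serine and glycine in the cytosol, read 10.11, 10.24 and 10.10 in 5P livers, against 10.35, 9.87 and 10.15 in 15P livers. The control arrays enclosed the low-protein ones, and the log2 fold change of 0.03 (SE 0.129, interval -0.27 to 0.32) was -0.10 without 15P replicate 2 and 0.14 without 15P replicate 1.

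The control arrays shared an order in several of these genes. Bhmt, Cth, Shmt1 and the Gldc probe sets 1376427_a_at and 1379334_at were each highest on 15P replicate 1 and lowest on 15P replicate 2, which makes 5 of the 12 probe sets, and 16.3% of all probe sets had that order. In 8 of the 12 the 3 control arrays ranged more widely than the 3 low-protein arrays. Gnmt, Cbs, Csad and Mat1a were the exceptions. The median SD of the 12 was 0.113 in 5P and 0.217 in 15P, against 0.117 in 5P and 0.122 in 15P over all probe sets.

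**Figure D2:**
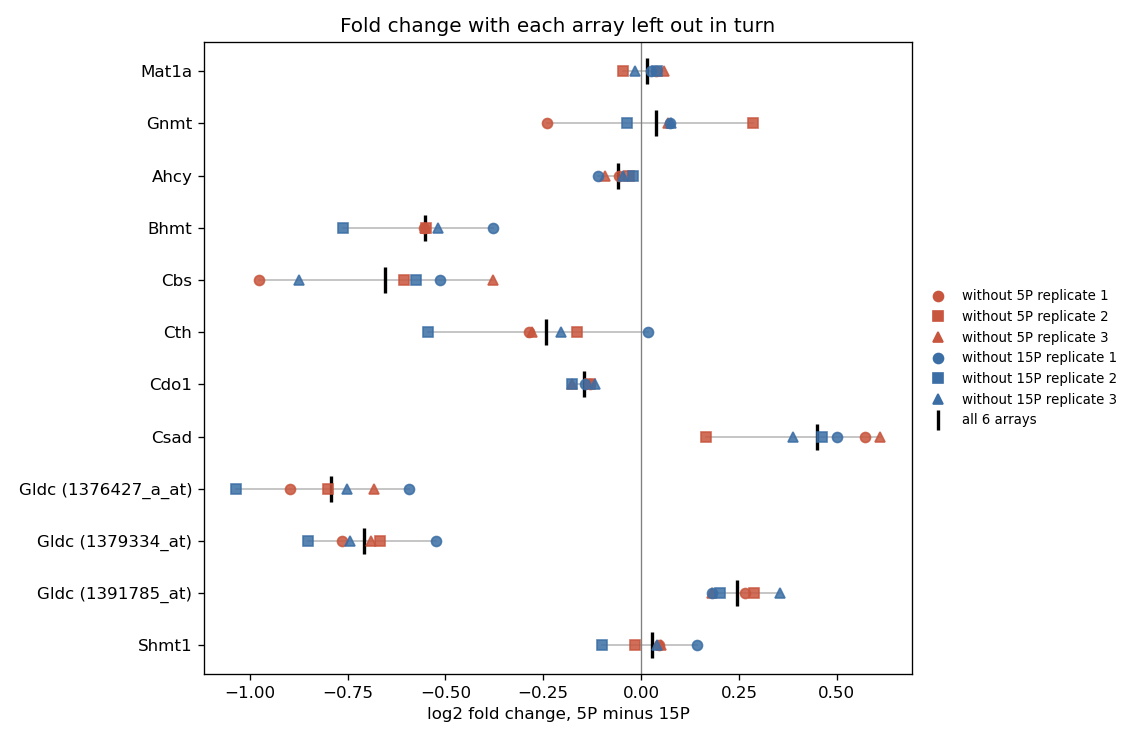
Log2 fold change (5P minus 15P) of the 12 probe sets with all 6 arrays (black bar) and with each array left out in turn (coloured markers, 5P in red and 15P in blue). Bhmt, Cbs, Cdo1, Ahcy and 2 Gldc probe sets stay below 0 in all 6 refits, Csad and the third Gldc probe set stay above 0, and Mat1a, Gnmt, Cth and Shmt1 cross 0.

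The promoters of Bhmt and Gldc follow here, 300 bases each from RefSeq on build GRCr8, reading 5′ to 3′ on the gene's strand. These are the 2 genes that had a probe set with non-overlapping diets and an unadjusted p under 0.05, although the third Gldc probe set overlapped. Lower case marks the 250 bases before the annotated start and capitals the 50 bases after it. Bhmt lies at chr2:26614380-26614679 and Gldc at chr1:237375555-237375854, both on the minus strand.
Bhmt: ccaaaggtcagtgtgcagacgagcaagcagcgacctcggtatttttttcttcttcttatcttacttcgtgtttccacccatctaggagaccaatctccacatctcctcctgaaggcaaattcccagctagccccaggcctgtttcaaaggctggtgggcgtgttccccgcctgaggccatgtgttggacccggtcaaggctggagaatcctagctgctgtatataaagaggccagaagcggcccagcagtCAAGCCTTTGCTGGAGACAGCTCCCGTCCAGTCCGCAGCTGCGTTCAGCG
Gldc: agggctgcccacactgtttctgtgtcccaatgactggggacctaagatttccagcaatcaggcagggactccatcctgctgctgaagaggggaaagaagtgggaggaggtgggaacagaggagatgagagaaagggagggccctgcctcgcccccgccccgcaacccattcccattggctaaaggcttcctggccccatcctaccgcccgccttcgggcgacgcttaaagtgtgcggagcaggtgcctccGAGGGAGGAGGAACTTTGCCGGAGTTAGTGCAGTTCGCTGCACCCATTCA
Of the 10 members, 9 had a promoter in the table, and Cdo1 is named only. The C/EBP-ATF response element, searched as TGATGNAA on both strands, was in 0 of these 9 windows and in 3.98% of 33469 promoters. The core of the antioxidant response element, TGACNNNGC on both strands, was in 1 of 9 (Gnmt) and in 12.1% of all. The E-box CACGTG was in 2 of 9 (Cth, and Shmt1 with 2 copies) and in 6.42% of all. Neither the Bhmt nor the Gldc window held any of the 3 motifs, and G and C made up 55.3% of the Bhmt window and 60.3% of the Gldc window.

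The other genes of the pathway were a list of 51, of which 48 were measured on 61 probe sets. None of the 61 passed over all probe sets, in either direction, by limma (adjusted p from 0.0961 upward). An unadjusted p under 0.05 was reached by 15, with 5 higher and 10 lower in 5P livers, or 24.6% against 15.4% of all probe sets (7.83% higher and 7.58% lower). The median log2 fold change was -0.04. Of the 61, 56 were at or above the median mean intensity, where the median of all probe sets was -0.0055.

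The methionine cycle and methyl supply genes were lower on 17 of 20 probe sets, with a median of -0.13, where 13001 of all 31042 probe sets were lower. The lower share among probe sets at or above the median mean intensity was not computed. These 20 probe sets stand for 12 genes. An unadjusted p under 0.05 was reached by 5 of the 20, or 25%, all lower in 5P livers, and Ahcyl1 is among the 5 more than once. Over all probe sets the share was 15.4% in either direction and 7.58% in the lower direction. Dmgdh, which demethylates the dimethylglycine that the Bhmt reaction leaves, read 10.91, 10.65 and 10.47 in 5P livers, against 11.20, 11.14 and 11.02 in 15P livers. The diets did not overlap, and the log2 fold change was -0.45 (SE 0.125, adjusted p = 0.165). Ahcyl1, a relative of Ahcy, had -0.38 (SE 0.104) on its probe set of smallest p and -0.23 and -0.06 on its other probe sets. Aldh7a1, Sardh and Bhmt2 were picked after their values were seen. Aldh7a1, which can oxidise betaine aldehyde, had -0.56 (SE 0.172), with 5P replicate 1 above 15P replicate 3. Sardh, the sarcosine dehydrogenase, had -0.26 (SE 0.099) and -0.12 (SE 0.097). Bhmt2, a paralog of Bhmt, had -0.24 (SE 0.107) and read 12.36, 12.35 and 12.28 in 5P livers, against 12.65, 12.36 and 12.69 in 15P livers, with 5P replicate 1 just under the lowest control array.

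The cysteine, taurine and sulfide genes, 13 in number, were higher on 9 of 15 probe sets and lower on 6. An unadjusted p under 0.05 was reached by 3 in each direction, together 40%, and both Gclc probe sets are among the higher 3. Over all probe sets the share was 15.4%, with 7.83% higher and 7.58% lower. On the side of sulfur oxidation, Suox, the sulfite oxidase, read 8.36, 8.29 and 8.19 in 5P livers, against 8.82, 8.65 and 8.70 in 15P livers. Tst, a sulfurtransferase also called rhodanese, read 11.27, 11.35 and 11.44 in 5P livers, against 11.83, 11.72 and 11.69 in 15P livers. Both were without overlap, with log2 fold changes of -0.44 (SE 0.092, adjusted p = 0.0961) and -0.39 (SE 0.091, adjusted p = 0.113). Of the genes that follow, Sqor, Gclc and Gss were picked after their values were seen. Sqor, the mitochondrial sulfide oxidoreductase, had -1.02 (SE 0.337), which was -0.62 without 15P replicate 2 and -1.31 without 15P replicate 3. Not all genes of this kind were lower: Ethe1 had 0.16 (SE 0.220), Ado 0.10 (SE 0.108) and Mpst 0.0051 (SE 0.092), each with overlapping diets.

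In glutathione synthesis, Gss and Gclc read higher in 5P livers. Gss, the glutathione synthetase, read 9.05, 9.73 and 8.79 in 5P livers, against 7.82, 8.30 and 8.55 in 15P livers. The diets did not overlap, and the log2 fold change was 0.97 (SE 0.257, interval 0.38 to 1.55, adjusted p = 0.152), or 1.95 times the control level. Gclc, the catalytic subunit of the rate-limiting ligase, had 0.67 (SE 0.164) and 0.60 (SE 0.184) on its 2 probe sets, both without overlap, and the second was 0.39 without 15P replicate 1. Gclm, the modifier subunit of that ligase, had -0.08, and Chac1, which breaks glutathione down, had -0.03. None of these 4 genes passed.

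In the remaining roles, Got1, the cytosolic aspartate transaminase, read 10.28, 10.49 and 10.13 in 5P livers, against 11.25, 10.86 and 10.79 in 15P livers. The diets did not overlap, and the difference was -0.67 (log2, SE 0.146, adjusted p = 0.104). Mri1, of methionine salvage, had 0.20 (SE 0.087). In the role labelled methyl acceptors, which holds genes of enzymes and not the accepting molecules, As3mt and Gamt had the smallest p. As3mt, an arsenic methyltransferase, had 0.37 (SE 0.112), and Gamt, a methyltransferase that makes creatine, had 0.23 (SE 0.0996). Among glycine and folate genes, Dao, the D-amino acid oxidase, had 0.70 (SE 0.221; 0.41 without 15P replicate 1) and Glyat, a glycine acyltransferase, had -0.36 (SE 0.121). The partners of Gldc in the glycine cleavage complex had -0.17 (Amt, SE 0.111), -0.10 (Gcsh, SE 0.092) and -0.04 (Dld), and the mitochondrial counterpart of Shmt1, Shmt2, had 0.26 (SE 0.155). The complex partners were thus nearer to 0 than the 2 lower Gldc probe sets, a difference that was not tested.

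**Figure D3:**
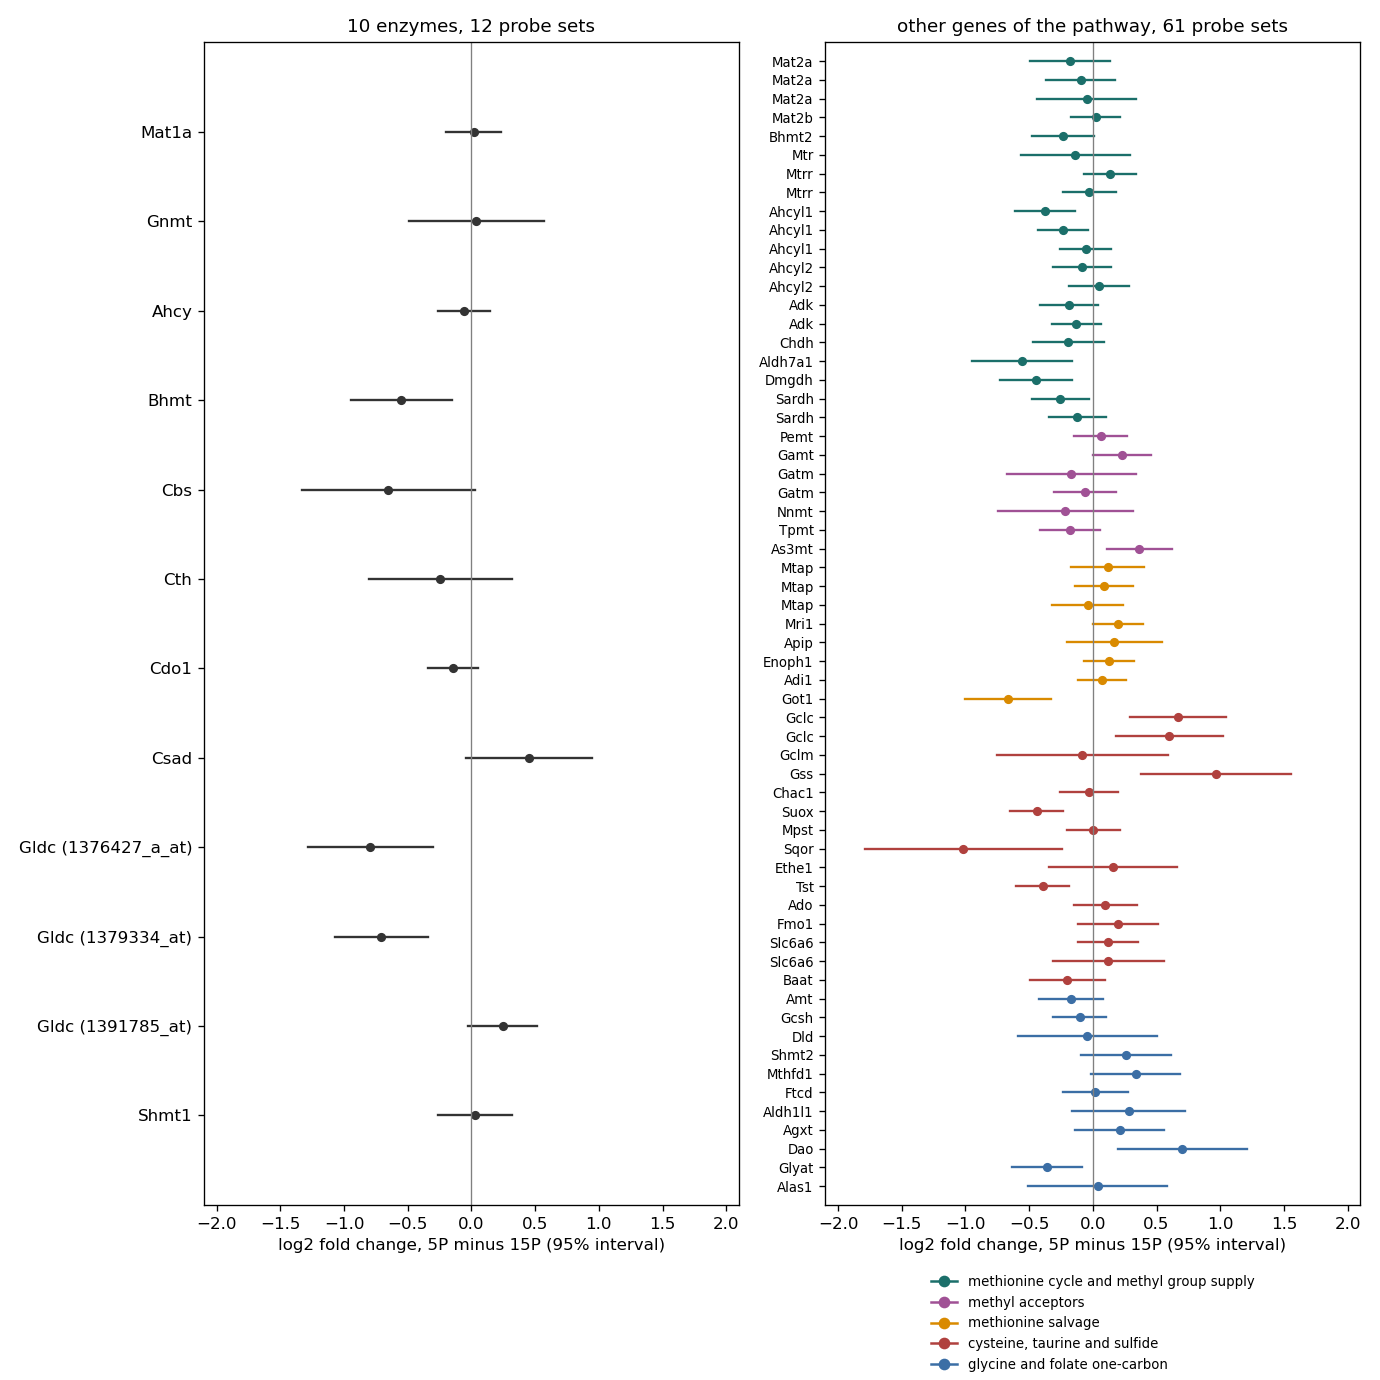
Log2 fold change (5P minus 15P) with its 95% interval for the 12 probe sets of the 10 enzymes (left) and for the 61 probe sets of the other pathway genes, coloured by role (right). No probe set on either side passed over all probe sets; 2 Gldc probe sets and Bhmt on the left have intervals that leave out 0, as do, among others, Sqor, Gss, Gclc, Suox, Tst and Got1 on the right.

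Hepatocyte markers were strong on every array, with 7 of 8 genes measured. Their summed linear intensity ran from 105700 to 107000 in 5P livers and from 110200 to 111600 in 15P livers. The ranges did not overlap, chiefly through Cps1 and Apoa1. Of the hepatocyte genes, Cps1, a urea cycle enzyme, had log2 fold changes of -0.70 and -0.23 on its 2 probe sets. Tat had -0.35 with overlapping diets and Apoa1 had -0.19, while Alb, Ttr, Apoc3 and Serpina1 lay between -0.02 and 0.05. The higher of the Alb probe sets was the top value of every array, where between-array normalization limits any difference. The 4 of 6 red blood cell genes measured summed to 4049 to 4314 in 5P livers and 2865 to 3118 in 15P livers, chiefly through Hbb at 0.48 (log2 fold change, SE 0.086). Alas2 had 0.43, also without overlap. Slc4a1 had 0.14 and 0.12 on its 2 probe sets and Epb42 had -0.06, all with overlapping diets. The 5 of 6 bile duct genes summed to 211.7 to 294.1 in 5P livers and 263.0 to 424.6 in 15P livers, with log2 fold changes of -0.55 for Epcam, -0.39 for Krt19, -0.11 for Cftr, -0.0063 for Spp1 and 0.13 for Krt7, and all 5 overlapped between the diets. The summed ranges of the diets overlapped for the bile duct, Kupffer cell, stellate, endothelial, lymphocyte and neutrophil lists. The lowest marker value was 7.16 on the linear scale, in the lymphocyte list. No detection calls were used, so the presence of each cell type was not tested. The part of the markers in the values of Bhmt, Gldc and Gss was not tested either. In whole liver, fewer cells of a type and less RNA per cell cannot be told apart.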

How the data were processed

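Liver RNA of 6 samples was labelled with a 3' IVT kit for Affymetrix rat arrays, as the labels' protocols say. The authors deposited an intensity for every probe set on every array, made with RMA per the submitters' processing notes, and the RMA software is not given in the sources used here. Since the values span 3.61 to 21668, they were read as linear and converted to log2. Normalization by RMA hides any shift common to most genes. With 57 control probe sets left out, 31042 were tested without a filter. Arrays have no read depth, and 3 arrays per diet limit the precision.

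The diets were compared with limma 3.58.1 (R 4.3.3), using lmFit and eBayes with two-sided tests on 8.38 total degrees of freedom, and Benjamini-Hochberg adjustment spanned every probe set at 0.05. The SE and the 95% interval are the moderated ones. Gene names come from the platform annotation and promoters from RefSeq. Members, lists and motifs were chosen with earlier results of these data known. Named genes are the members and, in each of 5 pathway roles, those that passed and otherwise the 2 of smallest p; the text says where a gene was picked outside this rule. The glycine cleavage partners, Shmt2, Gclm, Chac1, Ethe1, Ado and Mpst were also picked in that way. No member shares a probe set with another annotated gene. The fit was tested on simulated data. Alternatives covered the prior variance, scaling, a filter, array weights, a replicate block, 1 probe set per gene and each array left out. Plots used matplotlib 3.10.9 under Python 3.11.15.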

Additional observations from a re-analysis of the deposited data

How the results depend on the processing

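No member and no other pathway probe set passed over all probe sets under any of the 14 alternatives, and the lowest adjusted p of a member was 0.0941, for a Gldc probe set under quantile normalization. The count of all probe sets passing, 41 as reported, was 78 with arrays centred on the median, 102 with array weights, 6 with the replicate block, 26 with 1 probe set per gene and 16 to 109 with 1 array left out. The members with an unadjusted p under 0.05, 3 as reported, were 6 with the replicate block and 3 to 5 with 1 array left out. The members whose diets did not overlap, 5 as reported, were 3 with arrays centred on the 75th percentile, 4 with quantile normalization and 5 to 7 with 1 array left out. The matching shares of all probe sets were not computed for these alternatives. Of the 12 member probe sets, 8 kept their sign under every alternative run on them. Mat1a was -0.011 with median centring, -0.0053 with quantile normalization and -0.046 to 0.058 with 1 array left out, and the ranges over left-out arrays were -0.24 to 0.29 for Gnmt, -0.54 to 0.018 for Cth and -0.10 to 0.14 for Shmt1. Deviations of same-numbered arrays from their diet means correlated at -0.102 to -0.027 over all probe sets. Those of differently numbered arrays correlated at -0.071 to 0.147. With 3 arrays per diet, such values cannot decide whether the numbers pair the arrays, and the labels give no pairing. Low signal limits what 2 of the Gldc probe sets can show.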

Other observations

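The genes outside the pathway whose log2 values were most like those of the Gldc probe set 1379334_at over the 6 arrays, among 12296 named probe sets at or above the median mean level, were Cfi, which encodes a complement regulator of the plasma, Azgp1, which encodes a secreted zinc-binding glycoprotein, and Rbm15b, which encodes an RNA-binding protein. Pearson's r was 0.9935, 0.9909 and 0.9901 in that order, with Spearman's rho of 0.943 for each. These are the highest of many correlations over the same 6 arrays and are a description. The genes were chosen for likeness to a probe set lower in 5P livers, so their own lower values follow from that choice. On the 5P arrays 1379334_at itself read near the lower quartile of the arrays. Cfi read 12.96, 12.91 and 12.89 in 5P livers, against 13.19, 13.03 and 13.10 in 15P livers, a log2 fold change of -0.18 (SE 0.086) that did not pass. Rbm15b had -0.29 (SE 0.097) and Azgp1 had -0.11 (SE 0.081), also without passing.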
